A study of Mus musculus with 15 samples.

Results

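The transcripts of 6 matrix metalloproteinases (MMPs) and 3 of their inhibitors were followed through 15 single-colour oligonucleotide arrays of mouse macrophages. The genes were Mmp9, Mmp12, Mmp13, Mmp14, Mmp19, Mmp25, Timp1, Timp2 and Timp3, taken by gene symbol through the RefSeq accession of each probe. All 9 passed the filter on dim probes and stand among 14187 genes tested. The macrophages were grown from bone marrow for 1 week in macrophage colony-stimulating factor (M-CSF), all on a C57BL/6 background. Knockout cells carried Junb-fl/fl with Lyz2-Cre+/+, so that Cre recombinase, which cuts out the floxed Junb gene, is driven by the lysozyme gene of myeloid cells and occupies both of its copies. Wild type cells carried neither. Lipopolysaccharide (LPS), an outer membrane glycolipid of Gram-negative bacteria that is sensed by a Toll-like receptor, was added at 100 ng/ml for 4 h or left out. There were 3 arrays of LPS-treated knockout cells (replicates 2, 3 and 4), 4 of untreated knockout cells, 4 of LPS-treated wild type cells and 4 of untreated wild type cells. The replicates are wells, so p-values measure the spread between wells and not between mice.

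MMPs are zinc-dependent endopeptidases that cut collagens, elastin, proteoglycans and many other extracellular or cell surface proteins. Most are made as inactive precursors and are activated by other proteases, and the tissue inhibitors of metalloproteinases (TIMPs) block the active site of the mature enzymes. Macrophages are a main source of several MMPs in inflamed tissue. Junb encodes a subunit of AP-1, a family of dimeric transcription factors that bind the sequence TGANTCA, and MMP genes are textbook targets of AP-1.

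The Junb probe was well above background on none of the knockout arrays, with signals from -0.395 to 4.15, against 4323 to 9574 on the LPS arrays and 1291 to 2068 on the untreated arrays of wild type cells. Lyz2 itself read 869 to 2424 in untreated knockout cells, against 391771 to 448164 in untreated wild type cells. The 75th percentile of the signal, by which each array was scaled, ranged from 482 to 1490, and 51.0% to 63.2% of spots were well above background. All 8 measured macrophage markers were well above background on every array. The 7 knockout arrays shared slide 1 and the 8 wild type arrays slide 2, and each slide had its LPS arrays in row 2 and its untreated arrays in row 1. Genotype cannot be told apart from slide, nor treatment from row. Xist passed background on no knockout array and on each wild type array, and Ddx3y and Eif2s3y did the reverse. Other Y-linked probes did not separate so cleanly: Kdm5d passed background on all knockout arrays and on 1 of 4 LPS and 4 of 4 untreated wild type arrays, and 1 of 2 Uty probes on 3 of 4 wild type arrays of each treatment. A difference in donor sex, Cre and the loss of Lyz2 cannot be told apart from the loss of Junb. The arrays farthest from their group means were untreated knockout replicate 3 (SD over genes 0.638 log2 units), untreated wild type replicate 1 (0.540) and wild type replicate 4 with LPS (0.526), against 0.231 to 0.434 on the other 12 arrays.

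Levels below are log2 of the processed signal over the 75th percentile of the array, raised to a floor of -4.52, the same for all arrays. Differences are log2 fold changes with their standard error (SE), and a gene is called changed at an adjusted p under 0.05. Levels of different probes are not set against each other. In cultures, fewer cells that express a gene and less RNA per cell cannot be told apart.

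Mmp13, the collagenase that cleaves fibrillar collagen in rodents, had the largest fitted LPS response of the 6 MMPs in both genotypes, and it was lower in knockout cells both with and without LPS. Its level was 7.07, 7.05 and 7.13 in LPS-treated knockout cells and -0.30, -0.10, -0.58 and -0.45 in untreated knockout cells. It was 7.79, 7.78, 7.43 and 8.13 in LPS-treated wild type cells and 0.48, 0.79, 0.56 and 0.62 in untreated wild type cells. No 2 of the 4 groups overlapped, and every knockout array lay below every wild type array of the same treatment. LPS raised Mmp13 by 7.44 ± 0.15 (SE; 174-fold, adjusted p = 2e-13) in knockout cells and by 7.17 ± 0.14 (144-fold, adjusted p = 7.18e-14) in wild type cells. These responses differed by 0.28 ± 0.21, which did not pass the test (adjusted p = 0.459). Against wild type, the knockout level was lower by a log2 fold change of -0.70 ± 0.15 with LPS (1.62-fold, adjusted p = 0.00388) and of -0.97 ± 0.14 untreated (1.97-fold, adjusted p = 0.000327). Knockout cells thus had less Mmp13 before and after LPS, and no difference in the size of the induction was called.

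The RefSeq promoter table (GRCm38.p6) held 8 promoters of 7 of the 9 genes, and Mmp9 and Mmp19 are named only. 3 windows of 250 bases that end at the base before a start site are shown, because Mmp13 and Timp1 were induced the most and Mmp12 differed in its response. Capitals mark motifs found on either strand (TGANTCA for AP-1, TGACGTCA for the cyclic AMP response element, TATAAA for the TATA box and the NF-kappaB consensus).
Mmp13 promoter, chr9:7272264-7272513, plus strand: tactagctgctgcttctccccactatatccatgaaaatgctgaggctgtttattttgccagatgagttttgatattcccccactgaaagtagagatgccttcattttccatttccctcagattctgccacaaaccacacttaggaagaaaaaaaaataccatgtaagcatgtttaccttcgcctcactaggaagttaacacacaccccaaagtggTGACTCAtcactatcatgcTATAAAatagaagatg
Mmp12 promoter at the second listed start, chr9:7347124-7347373, plus strand: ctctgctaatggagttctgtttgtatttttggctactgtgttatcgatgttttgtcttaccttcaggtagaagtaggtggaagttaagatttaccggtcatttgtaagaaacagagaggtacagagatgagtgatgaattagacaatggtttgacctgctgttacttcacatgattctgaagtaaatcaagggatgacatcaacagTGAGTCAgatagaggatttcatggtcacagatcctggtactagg
Timp1 promoter, chrX:20869916-20870165, plus strand: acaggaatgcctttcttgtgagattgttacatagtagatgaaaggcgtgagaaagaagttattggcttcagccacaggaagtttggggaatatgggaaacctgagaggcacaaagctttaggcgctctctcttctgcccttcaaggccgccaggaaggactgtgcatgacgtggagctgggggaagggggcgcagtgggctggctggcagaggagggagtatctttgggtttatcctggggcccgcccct

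The Mmp13 window holds TGACTCA at positions -35 to -29 and TATAAA at -16 to -11, counted back from the start site. The Mmp12 window holds TGAGTCA at -44 to -38, and the first listed start of Mmp12 held no AP-1 motif. No TGANTCA match was found for Mmp14, Mmp25, Timp1, Timp2 or Timp3 in windows of 250 bases before and 50 bases after the start. Variants of that sequence were not searched. The Timp1 window holds such a variant, TGAGTAA, after the start site, beyond the bases printed above. The search could not match it, so an AP-1 site in Timp1 is not excluded. The Mmp25 window held an NF-kappaB motif at -88 to -79. Over 32851 promoters of this table, 7.81% held the AP-1 motif, 13.6% the TATA motif, 4.51% the NF-kappaB motif and 1.79% the cyclic AMP motif. A motif is a run of letters and was not tested for binding.

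**Figure D1:**
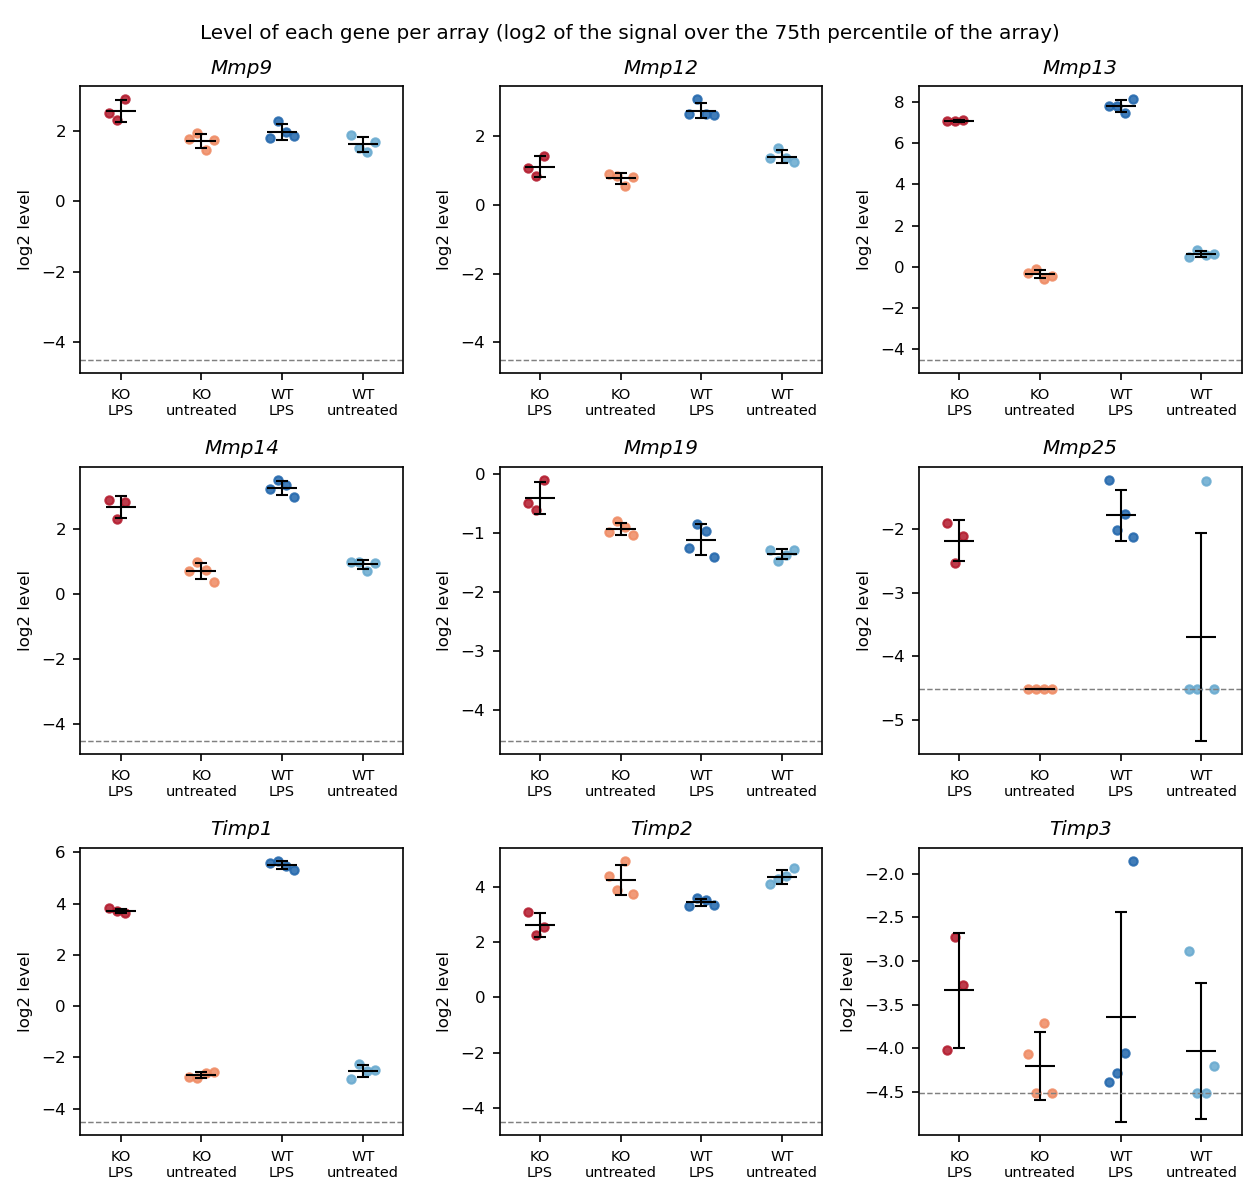
Level of each gene on each array (points; log2 of the processed signal over the 75th percentile of the array) in LPS-treated knockout (KO), untreated knockout, LPS-treated wild type (WT) and untreated wild type cells, with the group mean and SD (bars) and the floor of -4.52 (dashed line). Axes differ between panels. Mmp13 and Timp1 show the widest gap between LPS and untreated cells, Mmp12 and Timp1 the widest gap between LPS-treated knockout and wild type cells, and Mmp25 and Timp3 reach the floor.

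Mmp12, macrophage elastase, rose with LPS in wild type cells, and its response was smaller in knockout cells. Its brighter probe had levels of 1.06, 0.84 and 1.44 in LPS-treated knockout cells and 0.89, 0.84, 0.55 and 0.81 in untreated knockout cells. The levels were 2.65, 3.09, 2.66 and 2.62 in LPS-treated wild type cells and 1.38, 1.67, 1.36 and 1.24 in untreated wild type cells. In knockout cells the LPS and untreated arrays overlapped, while in wild type cells every LPS array lay above every untreated one. The LPS response was 0.34 ± 0.17 in knockout cells (adjusted p = 0.0900) and 1.34 ± 0.15 in wild type cells (adjusted p = 3.24e-06). The knockout response was lower by -0.998 ± 0.22 (adjusted p = 0.0123). With LPS, knockout cells had 3.11-fold less Mmp12 than wild type cells (-1.64 ± 0.17, adjusted p = 7.87e-06), and untreated 1.56-fold less (-0.64 ± 0.15, adjusted p = 0.0103). The untreated call was lost with normexp background correction (-0.42, adjusted p = 0.0740). It was also lost in the deposited value table with and without wild type LPS replicate 3 (-0.35, adjusted p = 0.133 and 0.136).

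A second, dimmer Mmp12 probe was well above background on 1 of 3 LPS-treated and 2 of 4 untreated knockout arrays, and on 3 of 4 LPS-treated and 4 of 4 untreated wild type arrays. It showed the same directions. Its response to LPS was 0.44 ± 0.13 in knockout cells (adjusted p = 0.0126) and 0.998 ± 0.12 in wild type cells (adjusted p = 9.57e-06). The difference of these responses, -0.56 ± 0.18, did not pass the test on this probe (adjusted p = 0.0863). Knockout cells were lower by -1.06 ± 0.13 with LPS (adjusted p = 7.90e-05) and by -0.50 ± 0.12 untreated (adjusted p = 0.0150). Both probes thus had lower levels in knockout cells, and they differ in whether the LPS response in knockout cells and the gap between the responses were called. Adjusted p of the second probe was taken over all kept probes and not over genes. In that fit the brighter probe had 0.0197 for the difference of the responses and 0.105 for the LPS response in knockout cells.

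Mmp9, gelatinase B, was measured by 1 probe printed as 10 spots per array. Its level was 2.51, 2.31 and 2.91 in LPS-treated knockout cells and 1.76, 1.95, 1.46 and 1.74 in untreated knockout cells. It was 1.79, 2.30, 1.96 and 1.85 in LPS-treated wild type cells and 1.89, 1.52, 1.39 and 1.69 in untreated wild type cells. The LPS-treated knockout arrays lay above all others (the lowest of them only narrowly), and the other 3 groups overlapped. LPS raised Mmp9 by 0.85 ± 0.18 (1.80-fold, adjusted p = 0.000916) in knockout cells, whereas the response of 0.35 ± 0.16 in wild type cells did not pass the test (adjusted p = 0.0808). The difference of these responses, 0.50 ± 0.24, was not called (adjusted p = 0.226), so the genotypes are not shown to differ in their response. With LPS, knockout cells had 1.52-fold more Mmp9 than wild type cells (0.60 ± 0.18, adjusted p = 0.0205), and untreated the difference was 0.10 ± 0.16 (adjusted p = 0.718).

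The spots of the Mmp9 probe show the spread between spots within an array. They share the RNA, labelling and hybridisation of that array, so error from those steps is not seen in it. Within an array the SD of single spots was 0.132 to 0.263 log2 units, and part of it is a lasting difference between spots. The mean over the spots had an SD of 0.201 to 0.306 between the arrays of a group, which is not a like measure. 1 of the 10 spots was marked by the scanner software on untreated knockout replicate 3 and was left out there. Taken spot by spot, the LPS response was 0.75 to 0.95 in knockout cells and -0.02 to 0.53 in wild type cells, and knockout minus wild type with LPS was 0.54 to 0.68. All 10 spots were higher in knockout cells with LPS, but they read the same RNA on the same arrays and are not replicates. Untreated, knockout minus wild type ranged from -0.32 to 0.36 over the spots, and the difference of the responses from 0.23 to 0.89. The call for Mmp9 between genotypes was lost without LPS-treated knockout replicate 4 (0.43, adjusted p = 0.0994) and without LPS-treated wild type replicate 1 (0.54, adjusted p = 0.0548). The wild type LPS response of Mmp9 was called with array weights (0.45, adjusted p = 0.00338). It was also called without the 3 arrays farthest from their group means (0.48, adjusted p = 0.0309). Leaving out untreated wild type replicate 1 gave a call as well (0.44, adjusted p = 0.0387). It stayed uncalled in 12 of 14 processing alternatives and in 14 of 15 fits that left out 1 array.

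Mmp19, a secreted MMP known to cut basement membrane proteins, followed Mmp9 most closely among the 9 genes, with a root mean square distance of 0.215 log2 units over 15 arrays after each gene was centred. Its level was -0.50, -0.62 and -0.11 in LPS-treated knockout cells and -0.99, -0.81, -0.89 and -1.03 in untreated knockout cells. It was -1.25, -0.84, -0.96 and -1.41 in LPS-treated wild type cells and -1.29, -1.48, -1.38 and -1.29 in untreated wild type cells. All knockout arrays with LPS lay above all wild type arrays with LPS. LPS raised Mmp19 by 0.52 ± 0.15 in knockout cells (adjusted p = 0.00809), against 0.24 ± 0.14 in wild type cells (adjusted p = 0.148), with an uncalled difference of 0.28 ± 0.20 (adjusted p = 0.437). Knockout cells had 1.63-fold more Mmp19 with LPS (0.71 ± 0.15, adjusted p = 0.00297) and 1.35-fold more untreated (0.43 ± 0.14, adjusted p = 0.0476). The untreated call lay at the threshold and was lost in 11 of 15 fits that left out 1 array. The response in knockout cells was lost without LPS-treated knockout replicate 4 (0.37, adjusted p = 0.0536). In wild type cells the response was called with array weights (0.30, adjusted p = 0.0186). It was also called without LPS-treated wild type replicate 4 (0.34, adjusted p = 0.0445).

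Mmp14, the membrane-anchored MMP that activates pro-MMP2 and cleaves collagen at the cell surface, rose with LPS in both genotypes. Its level was 2.89, 2.29 and 2.82 in LPS-treated knockout cells and 0.71, 0.97, 0.73 and 0.37 in untreated knockout cells. It was 3.22, 3.499, 3.34 and 2.99 in LPS-treated wild type cells and 0.98, 0.97, 0.72 and 0.95 in untreated wild type cells. The 2 genotypes overlapped untreated and did not overlap with LPS, where the knockout arrays were lower. LPS raised Mmp14 by 1.97 ± 0.18 (3.92-fold, adjusted p = 3.03e-07) in knockout cells and by 2.36 ± 0.16 (5.12-fold, adjusted p = 1.80e-08) in wild type cells. The difference of the responses was -0.39 ± 0.24 (adjusted p = 0.351). With LPS, Mmp14 was 1.51-fold lower in knockout cells (-0.59 ± 0.18, adjusted p = 0.0207), a call that was lost without LPS-treated knockout replicate 3 (-0.40, adjusted p = 0.125) and without LPS-treated wild type replicate 2 (-0.52, adjusted p = 0.0626).

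Mmp25, an MMP held at the cell surface by a lipid anchor and best known from neutrophils, was near background in untreated cells and above it with LPS. Its level was -1.90, -2.53 and -2.11 in LPS-treated knockout cells, and all 4 untreated knockout arrays were at the floor. It was -1.23, -2.01, -1.77 and -2.13 in LPS-treated wild type cells, and 3 of the untreated wild type arrays were at the floor while replicate 3 stood at -1.24. The fitted response in knockout cells, with untreated arrays at the floor, was 2.34 ± 0.62 (adjusted p = 0.00497). LPS-treated knockout cells had at least 9.58-fold more Mmp25 signal than untreated knockout cells. That bound is set by the lowest signal well above background and was not itself tested. In wild type cells the fitted response was 1.91 ± 0.57 (adjusted p = 0.0102), and without untreated wild type replicate 3 it was 2.73. That call was lost when only the wild type arrays were fitted (adjusted p = 0.0585) and with array weights (1.07, adjusted p = 0.178). Between genotypes Mmp25 was called neither with LPS (-0.40 ± 0.62, adjusted p = 0.680) nor untreated (-0.82 ± 0.57, adjusted p = 0.362). Without that 1 array the SE was 0.20 in place of 0.57, with no call between genotypes.

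**Figure D2:**
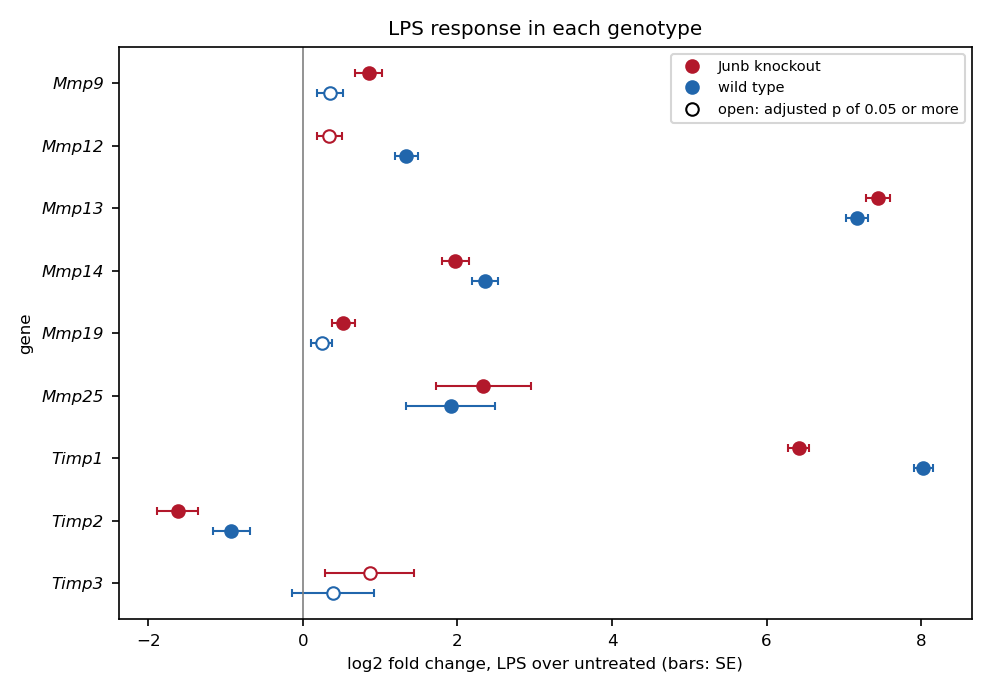
LPS response of each gene (log2 fold change, LPS over untreated, with SE) in knockout (red) and wild type (blue) cells; open points had an adjusted p of 0.05 or more. Mmp13 and Timp1 rose by more than 6 log2 units in both genotypes, Timp2 fell in both, and the 2 genotypes stood apart by a called difference for Mmp12 and Timp1.

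Timp1, a secreted inhibitor of most MMPs and a well known target of inflammatory signals, showed the largest LPS response of the 9 genes in wild type cells, below Mmp13 in knockout cells, and the widest gap between genotypes with LPS. Its level was 3.82, 3.69 and 3.65 in LPS-treated knockout cells and -2.75, -2.82, -2.62 and -2.58 in untreated knockout cells. It was 5.60, 5.66, 5.46 and 5.31 in LPS-treated wild type cells and -2.83, -2.24, -2.52 and -2.49 in untreated wild type cells. Untreated, the genotypes overlapped, and with LPS every knockout array lay below every wild type array. LPS raised Timp1 by 6.41 ± 0.14 (85.2-fold, adjusted p = 2.25e-13) in knockout cells and by 8.03 ± 0.13 (261-fold, adjusted p = 5.30e-15) in wild type cells. The knockout response was lower by -1.62 ± 0.19 (adjusted p = 9.72e-05). With LPS, knockout cells had 3.45-fold less Timp1 (-1.79 ± 0.14, adjusted p = 5.76e-07), and untreated the difference was -0.17 ± 0.13 (adjusted p = 0.385). The gene lies on chromosome X, and the cultures differ in sex-linked transcripts as given above.

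Timp2, which inhibits MMPs and also helps MMP14 to activate pro-MMP2, was read by 2 probes that differed in their LPS response. On the brighter probe its level was 3.09, 2.25 and 2.55 in LPS-treated knockout cells and 4.41, 3.89, 4.94 and 3.76 in untreated knockout cells. It was 3.32, 3.58, 3.52 and 3.36 in LPS-treated wild type cells and 4.11, 4.28, 4.40 and 4.69 in untreated wild type cells. On this probe LPS lowered Timp2 in both genotypes with no overlap, by a log2 fold change of -1.62 ± 0.26 in knockout cells (adjusted p = 0.000107) and -0.92 ± 0.24 in wild type cells (adjusted p = 0.00451). The difference of the responses was -0.70 ± 0.36 (adjusted p = 0.252). With LPS, knockout cells were lower by -0.82 ± 0.26 (1.76-fold, adjusted p = 0.0307), and untreated by -0.12 ± 0.24, which was not called (adjusted p = 0.789).

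On the second Timp2 probe the levels were 2.50, 2.28 and 2.52 in LPS-treated knockout cells and 2.67, 2.85, 2.56 and 2.91 in untreated knockout cells. They were 3.49, 4.03, 3.41 and 3.34 in LPS-treated wild type cells and 3.31, 3.20, 3.12 and 3.47 in untreated wild type cells. Here the knockout arrays lay below the wild type arrays under both treatments. The LPS response on this probe was -0.32 ± 0.16 in knockout cells (adjusted p = 0.123) and 0.29 ± 0.15 in wild type cells (adjusted p = 0.127), neither of which passed the test. Knockout cells were lower by -1.13 ± 0.16 with LPS (adjusted p = 0.000250) and by -0.53 ± 0.15 untreated (adjusted p = 0.0336). The probes thus shared a lower level in knockout cells with LPS and did not share the fall with LPS in wild type cells, where their signs were opposite. The call between genotypes on the brighter probe was lost in 4 of 15 fits that left out 1 array (LPS-treated knockout replicates 3 and 4, wild type replicates 2 and 3), with adjusted p from 0.0600 to 0.155.

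Timp3, an inhibitor bound to the matrix that also blocks ADAM proteases, was dim, and no comparison called it. Its level was -4.02, -2.72 and -3.27 in LPS-treated knockout cells and -4.07, -4.52, -3.71 and -4.52 in untreated knockout cells. It was -4.38, -4.29, -4.06 and -1.85 in LPS-treated wild type cells and -2.89, -4.52, -4.52 and -4.20 in untreated wild type cells. The groups overlapped in every comparison, and the SE of each fold change was 0.53 or more. The LPS response was 0.86 ± 0.57 in knockout cells (adjusted p = 0.208) and 0.39 ± 0.53 in wild type cells (adjusted p = 0.564). Without the 3 arrays farthest from their group means, an alternative chosen after seeing the data, Timp3 passed the test for LPS in knockout cells (1.03, adjusted p = 0.00683) and for knockout against wild type with LPS (0.90, adjusted p = 0.0243).

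Counted over the 9 genes, LPS raised 6 and lowered 1 in knockout cells, where 59.9% of all genes tested were called, 32.5% as higher and 27.5% as lower. In wild type cells LPS raised 5 and lowered 1, where 60.5% of all genes were called, 34.9% as higher and 25.5% as lower. With quantile normalisation the balance over all genes turned, to 3068 higher and 5178 lower in knockout cells and 3693 higher and 5098 lower in wild type cells, while no LPS response called in the 9 genes changed sign. The median log2 fold change with LPS was 0.86 in knockout cells and 1.34 in wild type cells, beside 0.19 and 0.14 over all genes. The difference of the responses was called for 2 genes, both lower in knockout cells, where 10.1% of all genes were called, 2.90% as higher and 7.15% as lower. With LPS, knockout cells had 2 genes higher (Mmp9 and Mmp19) and 5 lower (Mmp12, Mmp13, Mmp14, Timp1 and Timp2), where 30.8% of all genes were called, 13.6% as higher and 17.1% as lower. Untreated, 1 gene was higher (Mmp19) and 2 were lower (Mmp12 and Mmp13), where 17.7% were called, 11.9% as higher and 5.84% as lower. The median difference between knockout and wild type was -0.59 with LPS and -0.17 untreated, beside 0.01 and 0.04 over all genes. The 2 comparisons of knockout with wild type and the difference of the responses use the same arrays.

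**Figure D3:**
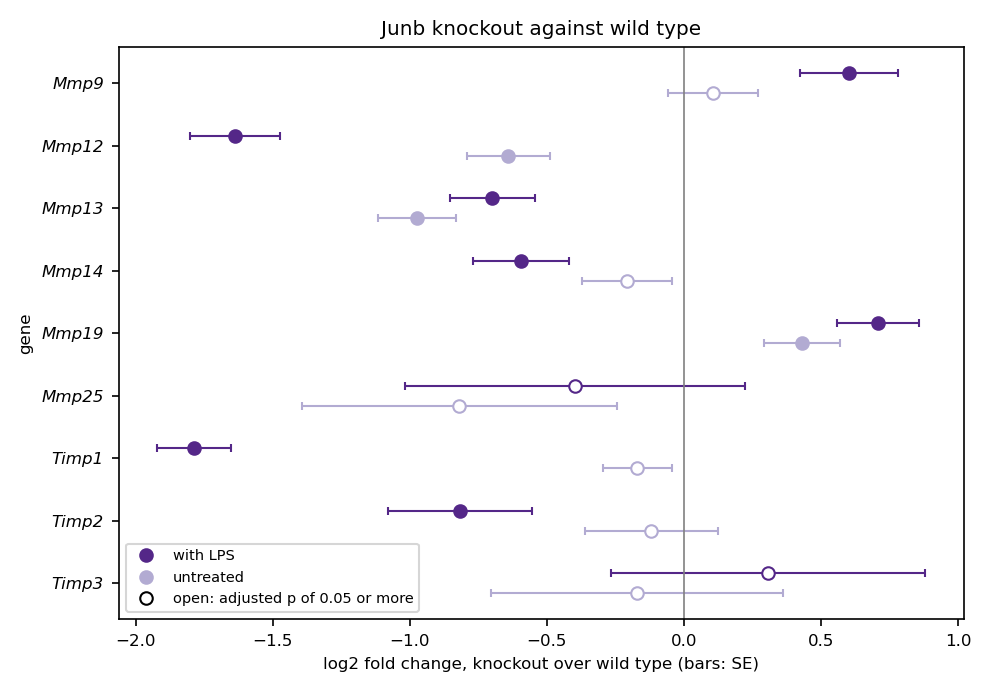
Difference between knockout and wild type cells (log2 fold change with SE) with LPS (dark) and untreated (light) for each gene; open points had an adjusted p of 0.05 or more. Mmp12, Mmp13, Mmp14, Timp1 and Timp2 lie to the left of 0 with LPS, Mmp9 and Mmp19 to the right.

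Mmp12 and Mmp13 are neighbours in a run of 10 MMP genes on chromosome 9, and this position was looked at after the values had been seen. In map order the run is Mmp13, Mmp12, Mmp1b, Mmp3, Mmp1a, Mmp10, Mmp8, Mmp27, Mmp20 and Mmp7, of which 6 were measured above the filter. All 6 were called lower in LPS-treated knockout cells than in LPS-treated wild type cells, by log2 fold changes from -0.70 to -2.84. Over all genes tested, 17.1% were called lower in this comparison and 13.6% higher. Mmp3, stromelysin 1, which cuts proteoglycans and activates other MMPs, had levels of -2.11, -1.77 and -1.62 in LPS-treated knockout cells and 0.79, 1.24, 1.19 and 0.82 in LPS-treated wild type cells (-2.84 ± 0.13, adjusted p = 4.79e-09). Mmp10, stromelysin 2, had -2.50, -2.75 and -2.39 against 0.01, 0.59, 0.11 and -0.19 in the same groups (-2.67 ± 0.15, adjusted p = 2.91e-08). Mmp1b, a rodent relative of interstitial collagenase, was lower by -1.60 ± 0.10 (adjusted p = 6.74e-08). Mmp8, the collagenase of neutrophils, was lower by -2.13 ± 0.19 (adjusted p = 2.37e-06). In none of the 6 did the knockout and wild type arrays with LPS overlap, but the share of all genes without overlap was not computed.

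Of these neighbours, Mmp8 was also lower untreated (-1.50 ± 0.17, adjusted p = 4.25e-05), as Mmp12 and Mmp13 were. Untreated, Mmp3, Mmp10 and Mmp1b stood at or next to the floor in both genotypes, so the difference of their responses rests on the levels with LPS. For Mmp1b that difference was lost with normexp background correction (-0.74, adjusted p = 0.0724), with each array's own floor (-1.20, adjusted p = 0.0821) and in the deposited value table with and without wild type LPS replicate 3 (adjusted p = 0.323 and 0.448). In the value table the lower level of Mmp8 with LPS was not called (-0.68, adjusted p = 0.603). Mmp3 was at least 12.7-fold higher with LPS than without it in knockout cells and at least 93.2-fold higher in wild type cells. The 10 nearest measured genes outside the run, 5 on each side, included 2 called lower and 2 called higher in knockout cells with LPS, between -0.64 and 0.44. Of the 7 genes elsewhere in the genome, Mmp14, Timp1 and Timp2 were lower and Mmp9 and Mmp19 higher with LPS.

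**Figure D4:**
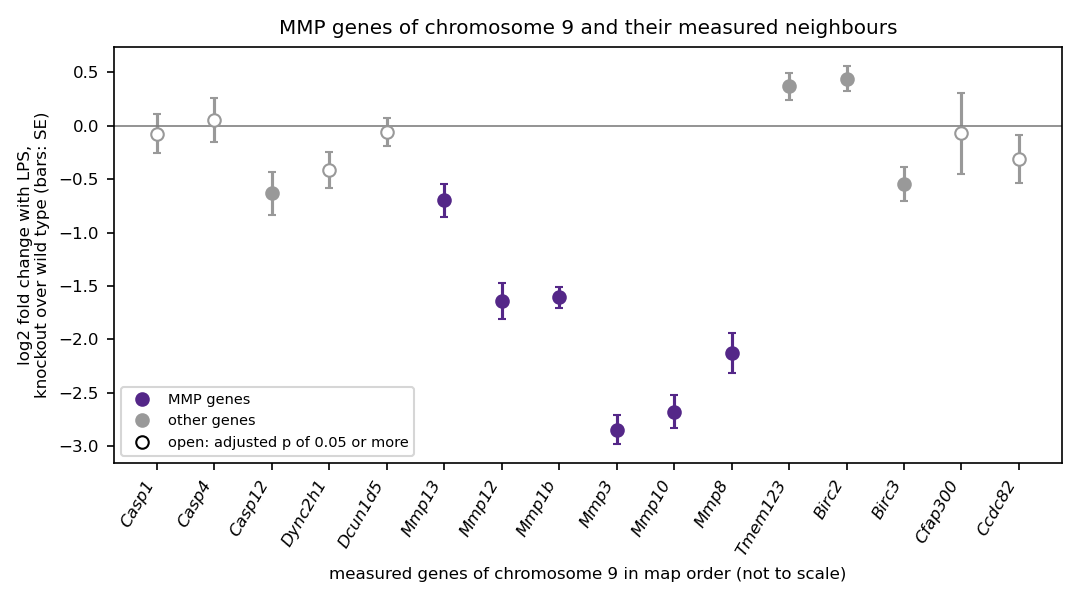
Difference between LPS-treated knockout and LPS-treated wild type cells (log2 fold change with SE) for the 6 measured MMP genes of the chromosome 9 run (purple) and the 5 nearest measured genes on each side (grey), in map order and not to scale. The MMP genes lie between -0.70 and -2.84, and the neighbours between -0.64 and 0.44.

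Beside the 9 genes, 18 other MMP and TIMP genes were listed, and 9 passed the filter. In knockout cells LPS raised 5 of them and lowered 2, and in wild type cells it raised 6 and lowered 1. Over all genes, 32.5% were called higher and 27.5% lower with LPS in knockout cells, and 34.9% higher and 25.5% lower in wild type cells. Of the 9, 5 were lower in LPS-treated knockout cells and none higher, with a median of -0.78, where 17.1% of all genes were lower and 13.6% higher. These 5 include Mmp1b, Mmp3, Mmp8 and Mmp10, already counted in the chromosome 9 run, so the counts are not independent. Untreated, 1 was lower in knockout cells, where 5.84% of all genes were. The difference of the responses was called for 3, Mmp3, Mmp10 and Mmp1b, all lower in knockout cells. Over all genes, 7.15% were called lower and 2.90% higher in that comparison. Mmp11, stromelysin 3, was lowered by LPS in knockout cells (-1.54 ± 0.46, adjusted p = 0.0103) and in wild type cells (-1.09 ± 0.43, adjusted p = 0.0403), and the difference was not called (adjusted p = 0.682). Mmp1a, Mmp7, Mmp15, Mmp20, Mmp28 and Timp4 were well above background on no array, Mmp16 on 1 and Mmp23 on 2.

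Of 15 genes that activate, inhibit or bind MMPs, 12 were measured. In knockout cells LPS raised 8 and lowered 2, beside 32.5% of all genes called higher and 27.5% called lower. In wild type cells it raised 10 and lowered 1, where 34.9% rose and 25.5% fell. Serpinb2, an inhibitor of plasminogen activators, and Lcn2, which binds MMP9, were among the most induced in both genotypes. Serpinb2 rose by 7.50 ± 0.53 in knockout cells and 8.43 ± 0.49 in wild type cells. Plat, tissue plasminogen activator, did not pass background on any untreated array and was at least 233-fold higher with LPS in knockout cells and at least 111-fold higher in wild type cells. With LPS, 3 of the 12 were higher in knockout cells and 5 lower (over all genes 13.6% and 17.1%), the most for Serpinb2 (-2.90 ± 0.53, adjusted p = 0.00104), Thbs1, thrombospondin 1 (-1.67 ± 0.22, adjusted p = 8.51e-05), and Lrp1, a receptor that clears MMPs and TIMPs (-1.33 ± 0.21, adjusted p = 0.000434). Untreated, 3 were higher and 4 lower (11.9% and 5.84%), and Plaur, the urokinase receptor, was among the lower ones (-1.16 ± 0.13, adjusted p = 2.98e-05). The response of Thbs1 was lower in knockout cells by -2.76 ± 0.30 (adjusted p = 6.31e-05).

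Among 13 ADAM and ADAMTS proteases, relatives of the MMPs, 10 were measured. LPS raised 5 and lowered 3 in knockout cells, where 59.9% of all genes were called, and raised 4 and lowered 3 in wild type cells, where 60.5% were. Adamts4, an aggrecanase, was at least 289-fold higher with LPS in wild type cells, and its level with LPS was higher in knockout than in wild type cells (1.24 ± 0.12, adjusted p = 3.76e-06). Adam19 was lowered by LPS, by a log2 fold change of -1.87 in knockout cells and -2.13 in wild type cells. With LPS, 4 of the 10 were higher in knockout cells and 1 was lower (13.6% and 17.1% over all genes). Adam17, which sheds cell surface cytokines, was higher in knockout cells with LPS (0.72 ± 0.17, adjusted p = 0.00556) and untreated (0.67 ± 0.16, adjusted p = 0.00868).

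Of 14 matrix substrates, 11 were measured. LPS raised 6 in knockout cells, where 32.5% of all genes rose and 27.5% fell, and 8 in wild type cells, where 34.9% rose and 25.5% fell, and lowered none in either. Vcan, the proteoglycan versican, rose by 5.47 ± 0.17 in knockout cells and 5.11 ± 0.16 in wild type cells, and Col4a1, a basement membrane collagen, by 2.64 ± 0.14 and 2.18 ± 0.13 in the same order of genotypes. With LPS, 3 were lower in knockout cells (17.1% over all genes), including Lamc1, a laminin chain (-1.57 ± 0.17, adjusted p = 1.79e-05), and Col4a1 was higher (1.40 ± 0.14, adjusted p = 9.96e-06). Vcan was lower in knockout cells with LPS (-0.99 ± 0.17, adjusted p = 0.000701) and untreated (-1.35 ± 0.16, adjusted p = 4.67e-05). Untreated, 3 of the 11 were lower in knockout cells and 1 was higher (5.84% and 11.9% over all genes). The LPS response of Fn1, fibronectin, was larger in knockout cells by 1.23 ± 0.19 (adjusted p = 0.00106). Its untreated level was lower there (-0.93 ± 0.13, adjusted p = 0.000203). The Fn1 call was lost in the deposited value table with and without wild type LPS replicate 3 (adjusted p = 0.378 and 0.0544).

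Neutrophils make Mmp8, Mmp9 and Mmp25, and bone marrow cultures can hold them, so their markers are given beside these genes. Of 11 neutrophil markers, 10 had a probe and 5 to 7 were well above background on an array. Their summed level, in units of the 75th percentile, was 19.4 to 22.3 in LPS-treated knockout cells against 52.6 to 71.1 in wild type cells with LPS. Without LPS it was 7.41 to 8.56 in knockout cells, against 10.8 to 16.9 in wild type cells. Mpo and Cxcr2 were well above background on no array, Ngp on 1 and Retnlg on 4. With LPS, 4 of the 6 measured markers were lower in knockout cells (17.1% over all genes), among them S100a9, at least 22.6-fold lower, and Mmp8, which is on both lists. Untreated, 4 of the 6 were lower too and none higher (5.84% and 11.9% over all genes), with S100a9 at least 16.7-fold lower. The sum includes Mmp8 and rose with LPS within each genotype, so it does not measure the number of neutrophils alone. With LPS, Mmp9 was higher and Mmp12, Mmp13 and Timp1 were lower in knockout cells, where the sum was lower. The part of neutrophils in these results was not tested.

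Stromal cells make Timp2, Timp3 and Mmp14. All 10 stromal markers had a probe and 4 to 9 were well above background on an array, with Pdgfra on none. Their summed level was 18.1 to 20.7 in LPS-treated knockout cells against 6.87 to 10.74 in wild type cells with LPS. Without LPS it was 2.96 to 4.63 in knockout cells, against 2.54 to 5.01 in wild type cells. The sum rose with LPS within each genotype, so it does not measure the number of stromal cells alone. With LPS it was higher in knockout cells, and Timp2 and Mmp14 were lower there. The part of stromal cells in these results was not tested. Of the 8 stromal markers that passed the filter, 2 were called higher in LPS-treated knockout cells (Pdgfrb, 1.75, and Cxcl12, 1.03), 2 lower (Dcn, -2.22, and Lum, at least 3.09-fold) and 4 neither. Of 8 dendritic cell markers, 4 to 6 were well above background on an array, and Clec9a and Dpp4 on none. Their summed level was 167 to 233 in LPS-treated knockout cells against 135 to 321 in wild type cells with LPS. Without LPS it was 101 to 179 in knockout cells, against 151 to 214 in wild type cells, so that the genotypes overlapped under both treatments.

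The genes whose levels followed each member most closely over the 15 arrays were found by the root mean square distance of centred log2 levels. Mmp13 was closest to Ccl2 and Cxcl3, both chemokines, at 0.211 and 0.357. Timp1 was closest to Il1f6, a cytokine of the interleukin 1 family, at 0.236, and to Edn1, endothelin 1, at 0.340. Mmp12 was closest to Fcgr3, a receptor for immunoglobulin G, at 0.170, which was lower in LPS-treated knockout cells by -1.71. Mmp14 was closest to Ulbp1 at 0.156, and Myd88, an adaptor of Toll-like receptors, stood at 0.190. Mmp9 was closest to Lcn10 at 0.155, Mmp19 to Ampd2 at 0.147 and Timp2 to Dag1, which encodes dystroglycan, at 0.254. Mmp25 and Timp3, with their dim spots, had no gene closer than 0.708 and 0.261. Among the 9 genes themselves, Mmp13 and Timp1 stood 0.523 apart and Mmp9 and Mmp19 0.215. The points share arrays, slides and scaling.

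The deposited value table of the series gave another picture of 1 array for Mmp13. Its entry for LPS-treated wild type replicate 3 was 7.48 on the log2 scale, whereas the median spot signal in the scanner output of that array was 17.48. On LPS-treated wild type replicate 2 the entry was 15.89 against 17.28. After quantile normalisation the scanner values of these 2 arrays were 16.95 on replicate 3 and 16.98 on replicate 2. On the other 13 arrays the table and the quantile-normalised scanner values lay within 0.394 of each other. With the table in place of the scanner output, Mmp13 came out higher in LPS-treated knockout than in LPS-treated wild type cells (1.95, adjusted p = 0.460). With LPS-treated wild type replicate 3 left out it came out lower (-0.37, adjusted p = 0.374). Over all entries, 1514 of 755670 (0.200%) departed by more than 4 log2 units from the quantile-normalised scanner values, with 658 of them on untreated knockout replicate 3 and 583 on the array just named.

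**Figure D5:**
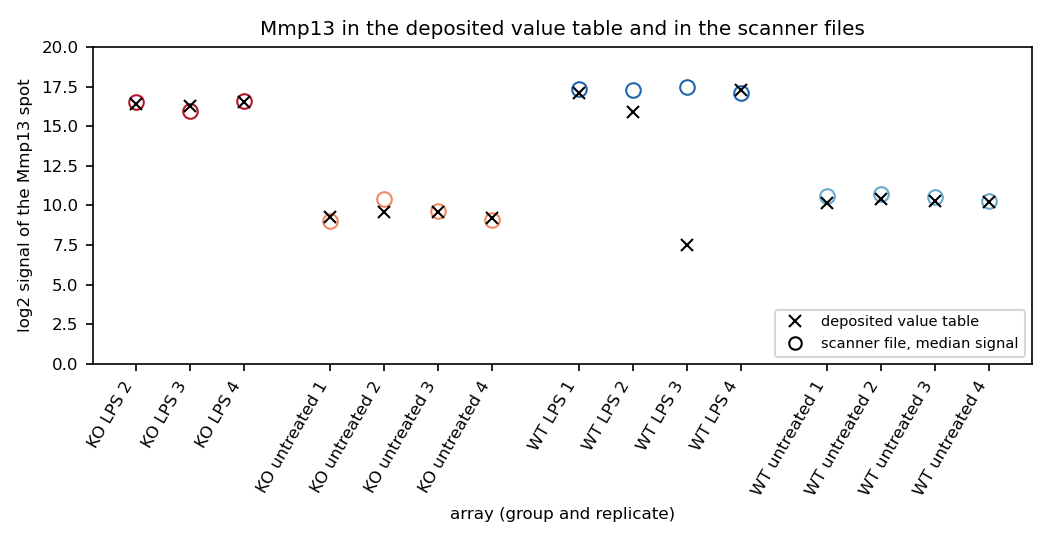
Log2 signal of the Mmp13 spot on each array in the deposited value table (crosses) and in the scanner output (open circles, median spot signal). Scales of the 2 sources differ by normalisation, and the crosses fall clearly below the circles on LPS-treated wild type replicate 3, at 7.48 against 17.48, and on replicate 2.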

How the data were processed

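RNA of 15 cultures was amplified, coupled to Cy3 and hybridised to 1-colour Agilent mouse arrays, per the labels' protocols. Per the file headers, scanner images were quantified with Feature Extraction 10.7.3.1 and probes were placed on mm9. The processed signal is, per the file headers, a background-subtracted intensity on a linear scale with no scaling between arrays. The deposited values of the series are log2 numbers whose making is not given in the sources used here. They follow the quantile-normalised median spot intensity and served as an alternative.

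Control spots were left out, and 4827 spots that the software marked (non-uniform, or outlying within their population) became missing. No spot was saturated. Each signal was divided by its array's 75th percentile over non-control spots, raised to a common floor (0.0436 of that percentile) and taken to log2, and the spots of a probe were averaged. Of 55681 probes, 26582 matched 1 symbol through RefSeq accessions (GRCm38.p6, used for names, gene order and promoters only). Probes detected above background on 3 or more arrays of any group were kept (32502), and a gene took its kept probe with the highest mean. limma 3.58.1 (R 4.3.3, data.table version 1.17.8) fitted 4 group means over 15 arrays, with Benjamini-Hochberg adjustment over all genes at 0.05, and was tested on simulated data. The second probes of Mmp12 and Timp2 come from the same model fitted to all 32502 kept probes, adjusted over those probes. In that fit the brighter Timp2 probe had an adjusted p of 0.0376 for knockout against wild type with LPS. The number of arrays limits the precision. "At least N-fold" is used where every array of the dimmer group was below the detection mark. It sets the brighter mean against, per array, the higher of the lowest detected signal and the dim probe's own.

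Alternatives were other normalisation, background correction, floor, filter, probe rule, spots, weights, prior, groups fitted, replicate block, the deposited values, and each array left out. The members and lists were chosen with earlier results of these data known. Related genes named are among the up to 3 with the largest called change per list and comparison. The chromosome 9 run and single markers were chosen after their values were seen.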

Additional observations from a re-analysis of the deposited data

Results flagged for a closer look

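In 4 of 33 groups of 4 arrays, 1 array stood apart from the other 3 by more than Dixon's critical ratio for 4 values. Chance gives such a gap in about 1 in 20 groups. Mmp12 on LPS-treated wild type replicate 2 was at 3.087, against 2.62 to 2.66 on the other 3 arrays. Mmp14 on untreated wild type replicate 3 was at 0.7159, against 0.95 to 0.98. Mmp25 on untreated wild type replicate 3 was at -1.24, with a signal of 405, while the other 3 arrays were at the floor of -4.52. Timp3 on LPS-treated wild type replicate 4 was at -1.854, with a signal of 133, against -4.38 to -4.06.

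The LPS response differed between genotypes, by limma's test of the difference, for Mmp12 (-0.998 in knockout minus wild type, adjusted p = 0.0123) and Timp1 (-1.62, adjusted p = 9.72e-05).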

How the results depend on the processing

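Of 1296 log2 fold changes of the 9 genes recomputed under the alternatives, 1234 kept their side of the threshold without a called value changing sign, 51 lost the call, 10 gained it and 1 reversed. Among the 1234, 12 values that were not called either way changed sign (in Timp1, Timp2, Timp3 and Mmp25; adjusted p of 0.456 or more). The difference of the LPS responses was called for 2 genes under every alternative in which it could be fitted, with Mmp12 between -1.17 and -0.78 and Timp1 between -1.84 and -1.51. For knockout against wild type untreated, 3 genes were called, against 1 with normexp background correction, 0 in the deposited value table and 1 in that table without wild type LPS replicate 3. With LPS, 7 genes were called, against 2 in the value table and 3 without that array. Mmp13 with LPS reversed in the value table (1.95), and the untreated difference of Adam10 reversed with marked spots kept in (-0.54). The cause was not tested. Leaving out 1 array at a time gave 6 to 8 genes for LPS in knockout cells, 6 to 7 in wild type cells, 2 to 2 for the difference, 5 to 7 for knockout against wild type with LPS and 2 to 3 untreated. Quantile normalisation moved the balance over all genes: LPS in knockout cells gave 3068 higher and 5178 lower genes, against 4607 and 3897, with a median of -0.08 against 0.19. In wild type cells it gave 3693 and 5098, against 4955 and 3624, with a median of -0.12 against 0.14. Over all genes, the difference of the LPS responses was called for 1427 genes (412 higher, 1015 lower in knockout cells), against 193 and 621 with normexp, 111 and 416 in the value table (120 and 310 without the array named), 1470 and 3031 with array weights, 736 and 1497 without the 3 arrays farthest from their group means, and 296 and 635 without LPS-treated knockout replicate 3. Knockout against wild type untreated gave 1688 higher and 828 lower, against 1192 and 451 with normexp, 840 and 324 in the value table (1022 and 344 without that array), and 3320 and 1873 with array weights. With LPS it gave 1933 and 2431, against 1054 and 1533 in the value table (1303 and 1302 without that array) and 1349 and 1518 without LPS-treated knockout replicate 3. The replicate block ended the call of Mmp19 untreated (adjusted p = 0.0917) and of Timp2 with LPS (-0.84, adjusted p = 0.0563) and changed no other call of the 9 genes. Same-numbered arrays deviated with correlations from -0.53 to 0.56, so the numbers were not taken to pair them. The calls of Mmp9 and Mmp14 with LPS were also lost when only the 2 groups compared were fitted (adjusted p = 0.0514 and 0.0557), as was the LPS response of Mmp25 in wild type cells (adjusted p = 0.0585). Dim signals limit Mmp25 and Timp3.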
